A study of Rattus norvegicus with 12 samples.

Results

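The genes described here cycle calcium in the heart muscle cell: Atp2a2, Pln, Sln, Ryr2, Casq2, Slc8a1, Slc24a3, Cacna1c, Cacnb2 and Cacng6. They were taken as a fixed set of 10 genes, and a probe set was counted to a gene where the platform annotation gave that gene as its only symbol. This gave 23 of the 31042 probe sets that are not manufacturer's controls. The study measured RNA on 12 Affymetrix rat arrays with 3 arrays in each of 4 groups. The groups were left atrium of shunt rats, left atrium of sham rats, left ventricle of shunt rats and left ventricle of sham rats. All donors were male Sprague Dawley rats with a labelled weight of 225 to 275 g, and no genetic change is given. Tissue was the atrial appendage or the ventricular free wall, taken 28 days after the operation. In a shunt rat, blood passes straight from the aorta into the vena cava and returns to the heart, which adds a volume load. Each array held a pool of 2 tissues, so the error between arrays is that between pools and not between single animals.

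In a heart muscle cell, calcium enters through the voltage-gated L-type channel, opens the ryanodine receptor of the sarcoplasmic reticulum and so releases the larger store that drives contraction. Relaxation follows as the SERCA pump returns calcium to the store and the sodium-calcium exchanger carries the rest out of the cell. Phospholamban and sarcolipin are small membrane proteins that hold the pump back, and sarcolipin is known as the atrial member of the pair.

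The chamber labels were checked against marker genes. The mean of 6 measured atrial myocyte markers was 10.7 to 10.9 on the log2 scale on atrial arrays. It was 6.78 to 7.61 in shunt ventricles and 6.85 to 7.15 in sham ventricles. Gja5 of this list ran the other way, at 4.86 and 4.82 in shunt and sham atria and 5.54 and 5.45 in ventricles. The mean of 6 ventricular markers was 5.58 to 5.95 in shunt atria, 4.96 to 5.30 in sham atria, 9.46 to 9.48 in shunt ventricles and 9.27 to 9.35 in sham ventricles. Of these 6, Myl3 and Myh7 were called higher in shunt atria. The mean of 6 general cardiomyocyte markers, of which Ryr2 is itself a member here, lay between 12.7 and 12.8 on all 12 arrays. Between atrial groups, 1 mesothelial, 1 nerve and 1 skeletal muscle marker were also called. The mean of the 3 measured mesothelial markers was 6.204 to 6.71 in shunt atria and 6.51 to 6.77 in sham atria. The fibroblast, endothelial, smooth muscle, macrophage and adipocyte lists held no call in either chamber. Only 2 of the 5 adipocyte markers were tested, so the others could not be called. The mean of the 5 was 5.35 to 6.68 in shunt atria and 5.55 to 5.78 in sham atria. Whether a change in cell makeup plays a part in any difference below was not tested. In these bulk samples, fewer cells of a type and less RNA per cell cannot be told apart.

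The values are RMA values on a log2 scale, on which a difference of 1 is a doubling. A probe set was tested if its mean over the 12 arrays reached the 40th percentile, 4.01. Of the 23 member probe sets, 20 passed, so every gene had at least 1. A call is an adjusted p below 0.05 in limma, with Benjamini-Hochberg adjustment over all 18625 probe sets tested. A gene with several probe sets is shown by the tested one of highest mean, and the levels of different probe sets were not set against each other.

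The exchanger Slc24a3 was the member that fell in both chambers of shunt rats, by nearly the same amount. The channel subunit Cacng6 fell in the ventricle, as did 1 of the probe sets of the channel pore gene Cacna1c. In the left atrium, 1 of 20 member probe sets was called lower and 0 higher, where 1.3% of all probe sets were called, 0.827% lower and 0.478% higher. In the left ventricle, 3 of 20 were called lower and 0 higher, where 0.107% of all probe sets were called, 0.0483% lower and 0.0591% higher. Those 3 were among 9 probe sets called lower in the ventricle in all. The calls over all probe sets rest on few arrays: the atrial count of 243 ran from 66 without sham atrium 3 to 469 without shunt atrium 3. The ventricular count of 20 ran from 0 without shunt ventricle 3, sham ventricle 1 or sham ventricle 3 to 118 without shunt atrium 3. Arrays of shunt and sham rats did not overlap for 6 of 20 member probe sets in the atrium, against a background of 20.7%, and for 9 of 20 in the ventricle, against 20.8%. The atrial count of non-overlapping probe sets is thus near the background. The genes were chosen with the calls of Slc24a3 and Cacng6 already known, so these counts are a description.

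**Figure D1:**
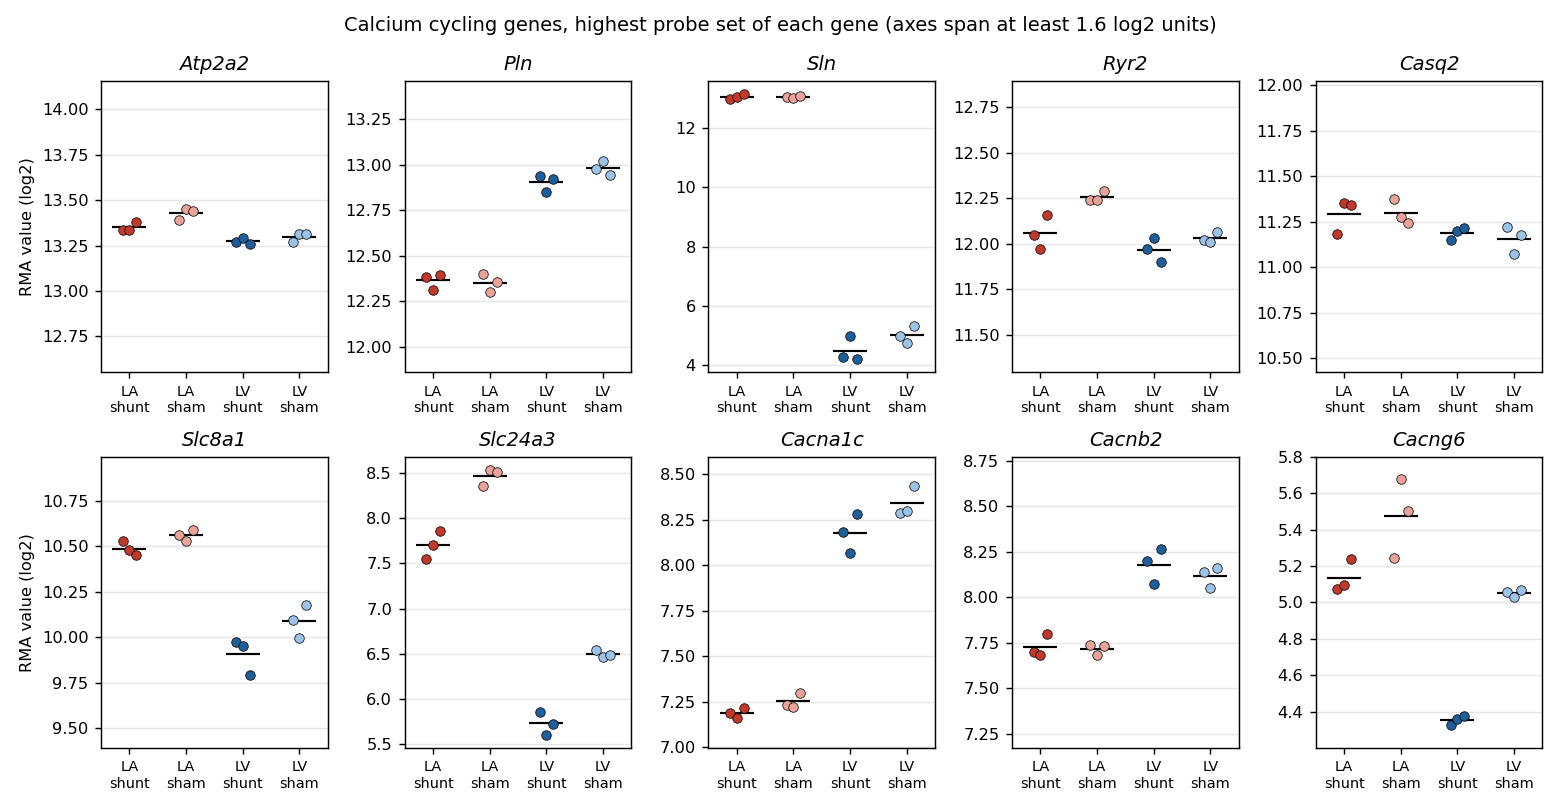
RMA values (log2) of the 10 genes on each of the 12 arrays. Points are arrays, lines are group means, and groups run from LA (left atrium) shunt and sham to LV (left ventricle) shunt and sham. Slc24a3 is lower in shunt than in sham arrays of both chambers, Cacng6 is clearly lower in shunt ventricles, and Sln lies near 13 in atria and between 4.22 and 5.33 in ventricles.

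The promoters of the genes with these falls are shown because the genes share the direction in shunt ventricles while their promoters have different base composition. Each window runs from 250 bases before to 50 bases after the gene's start in RefSeq, build GRCr8, 5′ to 3′ on the gene's strand. Slc24a3 lies at chr3:153005168-153005467 on the plus strand, Cacng6 at chr1:74662704-74663003 on the minus strand and Cacna1c at chr4:154051699-154051998 on the minus strand. Capitals mark matches to the motifs searched.
Slc24a3: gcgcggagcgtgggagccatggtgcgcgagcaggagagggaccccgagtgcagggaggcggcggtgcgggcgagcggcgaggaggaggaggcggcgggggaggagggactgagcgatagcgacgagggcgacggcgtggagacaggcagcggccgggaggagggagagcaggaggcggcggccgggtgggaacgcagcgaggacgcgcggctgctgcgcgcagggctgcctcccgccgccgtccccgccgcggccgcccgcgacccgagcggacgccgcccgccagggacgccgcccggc
Cacng6: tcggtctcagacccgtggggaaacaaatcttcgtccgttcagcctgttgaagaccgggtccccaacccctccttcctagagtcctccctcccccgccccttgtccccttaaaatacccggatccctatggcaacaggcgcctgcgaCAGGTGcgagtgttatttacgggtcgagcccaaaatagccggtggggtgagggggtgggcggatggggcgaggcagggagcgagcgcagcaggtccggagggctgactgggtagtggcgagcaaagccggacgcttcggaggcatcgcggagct
Cacna1c: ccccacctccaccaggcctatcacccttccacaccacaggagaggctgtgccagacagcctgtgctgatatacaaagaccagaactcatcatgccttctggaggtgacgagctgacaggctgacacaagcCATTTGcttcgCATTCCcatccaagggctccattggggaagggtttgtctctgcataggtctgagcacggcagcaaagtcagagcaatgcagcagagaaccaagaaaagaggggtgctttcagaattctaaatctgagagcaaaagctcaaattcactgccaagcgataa
The G and C content was 80.0% in the Slc24a3 window, 63.7% in the Cacng6 window and 51.7% in the Cacna1c window. The search covered both strands for the TATA box with letters TATAAA, the M-CAT element with letters CATTCC, the site of zinc finger factors with letters AGATAA, the E-box with letters CANNTG, the MEF2 site and the CArG box. The Cacng6 window held an E-box starting at -104, and the Cacna1c window held CATTCC at -109 and an E-box at -120, which do not overlap. The Slc24a3 window held none of the 6 motifs. Over all 33469 promoter windows of this length, 14.2% held TATAAA, 14.2% CATTCC, 11.6% AGATAA, 72.1% an E-box, 0.565% a MEF2 site and 1.64% a CArG box. A match describes letters in the window and is not a shown binding site. Windows were found for 9 of the 10 genes. The M-CAT letters in Cacna1c were the only match in these windows other than E-boxes.

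Atp2a2 encodes SERCA, the pump that refills the sarcoplasmic reticulum. Its main probe set had 13.34, 13.34 and 13.38 in shunt atria, against 13.39, 13.45 and 13.44 in sham atria. In ventricles it had 13.27, 13.29 and 13.26 in shunt rats, against 13.27, 13.31 and 13.32 in sham rats. The atrial groups did not overlap, but lay within 0.12 of each other. The shunt-minus-sham difference was -0.08 in the atrium (95% interval -0.19 to 0.04) and -0.03 in the ventricle (-0.14 to 0.09), and limma called neither. The intervals leave room for small changes of the pump's RNA in either chamber. The values of the main probe set stood near the top of the range on all arrays. On the probe set with a mean of 9.96 over all arrays, the atrial difference was 0.04 (95% interval -0.09 to 0.17). The ventricular difference on it was -0.15 (-0.29 to -0.02), with all shunt ventricles below all sham ventricles. Neither was called (adjusted p = 0.814 and 0.289 in limma). The atrial effect minus the ventricular effect on it was 0.19, also not called (adjusted p = 0.75 in limma).

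Pln encodes phospholamban, the inhibitor of SERCA that phosphorylation releases. It had 12.38, 12.31 and 12.40 in shunt atria, against 12.40, 12.30 and 12.36 in sham atria. Its ventricular values were 12.94, 12.85 and 12.92 in shunt rats, against 12.98, 13.02 and 12.94 in sham rats. The atrial groups overlapped, and the ventricular groups came within 0.01 of each other. The difference was 0.01 in the atrium (95% interval -0.12 to 0.14) and -0.08 in the ventricle (-0.20 to 0.05).

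Sln encodes sarcolipin. It had 12.98, 13.06 and 13.14 in shunt atria, against 13.03, 13.02 and 13.09 in sham atria, which overlapped. Ventricles had 4.28, 4.98 and 4.22 in shunt rats, against 5.002, 4.74 and 5.33 in sham rats. The gene was thus near the top of the array in atria, at the 99.9th percentile in both groups, and at the 48.6th percentile in shunt ventricles and the 56.8th in sham ventricles. The difference was 0.01 in the atrium (95% interval -0.39 to 0.41). In the ventricle it was -0.53 (-0.93 to -0.13), and limma did not call it (adjusted p = 0.221). The ventricular groups overlapped through the shunt array at 4.98.

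Ryr2, the ryanodine receptor through which the store empties, had 12.05, 11.97 and 12.16 in shunt atria, against 12.24, 12.24 and 12.29 in sham atria. All shunt atria were below all sham atria, with a difference of -0.20 (SE 0.0651) that limma did not call (adjusted p = 0.172). It passed the threshold with array weights (-0.25, adjusted p = 0.0306 in limma) and with a trended, robust prior (-0.20, adjusted p = 0.0372 in limma). Shunt ventricles had 11.97, 12.03 and 11.90, against 12.02, 12.01 and 12.06 in sham ventricles, and these overlapped with a difference of -0.07.

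Casq2 encodes cardiac calsequestrin, which binds calcium inside the store. Its arrays lay at 11.19, 11.35 and 11.34 in shunt atria, against 11.37, 11.27 and 11.24 in sham atria. In ventricles they lay at 11.15, 11.20 and 11.22 in shunt rats, against 11.22, 11.07 and 11.18 in sham rats. Groups overlapped in both chambers. The differences were -0.003 in the atrium (95% interval -0.16 to 0.15) and 0.03 in the ventricle (-0.12 to 0.18), and neither was called.

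Slc8a1, the sodium-calcium exchanger of the cell surface, had 10.53, 10.48 and 10.45 in shunt atria, against 10.56, 10.53 and 10.59 in sham atria. Shunt ventricles had 9.97, 9.95 and 9.79, against 10.09, 10.00 and 10.18 in sham ventricles. Atrial groups overlapped narrowly and ventricular groups did not. The difference was -0.07 in the atrium (95% interval -0.23 to 0.08) and -0.18 in the ventricle (-0.34 to -0.03), and limma called neither (adjusted p = 0.675 and 0.262).

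Slc24a3 encodes an exchanger that moves calcium out of cells against sodium and together with potassium. It had 7.55, 7.71 and 7.86 in shunt atria, against 8.36, 8.54 and 8.51 in sham atria. Shunt ventricles had 5.86, 5.60 and 5.72, against 6.54, 6.47 and 6.49 in sham ventricles. In each chamber every shunt array was below every sham array, and the gap between the groups was larger than the range within either. The gene fell by 0.77 in the atrium (SE 0.0912, 0.588-fold, adjusted p = 0.00286 in limma) and by 0.77 in the ventricle (SE 0.0912, 0.586-fold, adjusted p = 0.0119 in limma). The atrial effect minus the ventricular effect was 0.01, with a 95% interval from -0.28 to 0.29. The atrial call held with each of the 12 arrays left out in turn (-0.84 to -0.69). The ventricular call was lost without shunt ventricle 3, sham ventricle 1 or sham ventricle 3, while its value stayed between -0.84 and -0.71.

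A second Slc24a3 probe set lay under the filter and was not part of the test. It had 3.37, 3.57 and 3.503 in shunt atria, against 3.998, 3.71 and 3.83 in sham atria. Shunt ventricles had 3.04, 2.95 and 2.95, against 2.94, 3.15 and 3.01 in sham ventricles. Atrial groups did not overlap and ventricular groups did. In a fit without the filter its difference was -0.36 in the atrium (adjusted p = 0.101 in limma) and -0.05 in the ventricle (adjusted p = 0.861 in limma), so it did not repeat the ventricular fall, at values near the bottom of the array.

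**Figure D2:**
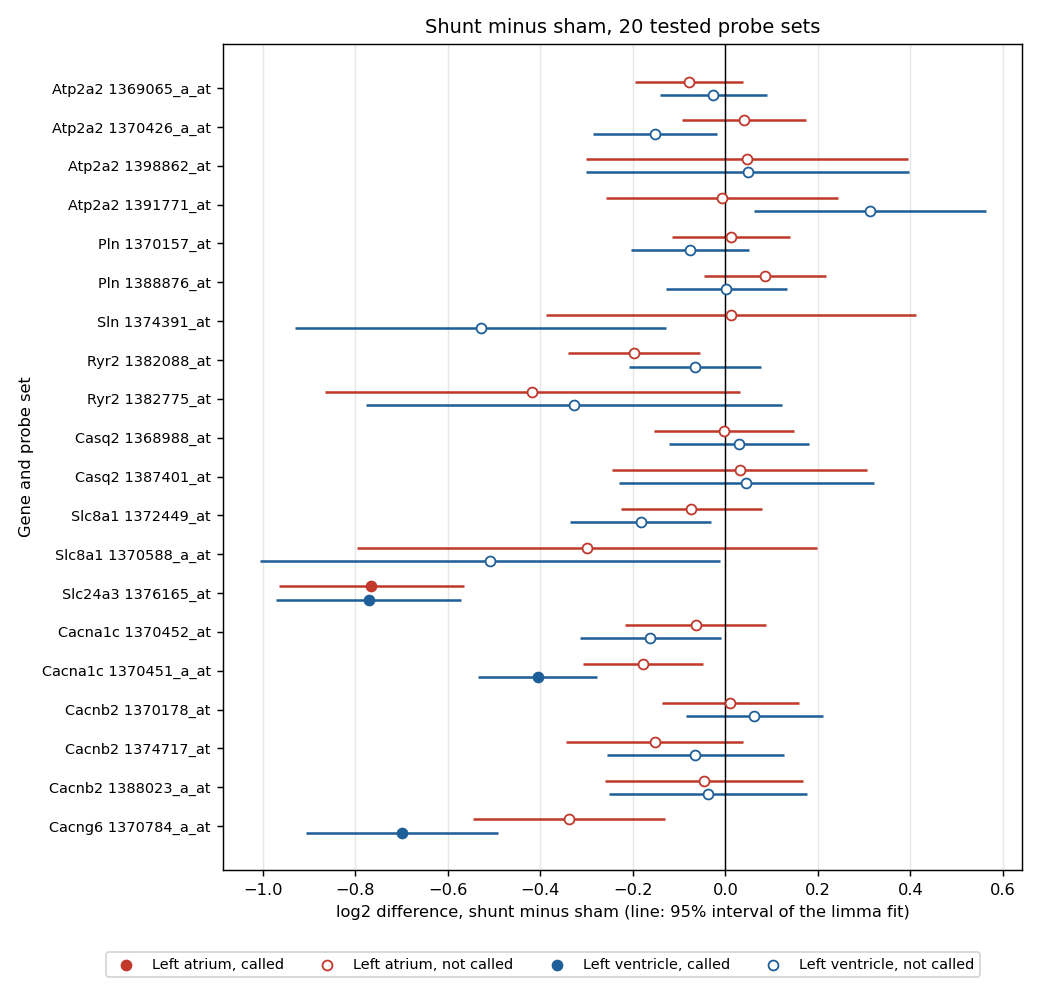
Difference between shunt and sham (log2) for the 20 tested probe sets, in left atrium (upper mark of each row) and left ventricle (lower mark), with 95% intervals of the limma fit. Filled marks are calls at an adjusted p below 0.05. Slc24a3 is filled in both chambers, and Cacng6 and 1 Cacna1c probe set in the ventricle.

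Cacna1c encodes the pore of the cardiac L-type channel. Its main probe set had 7.19, 7.16 and 7.21 in shunt atria, against 7.23, 7.22 and 7.30 in sham atria. Shunt ventricles had 8.18, 8.07 and 8.28, against 8.29, 8.30 and 8.43 in sham ventricles. Shunt arrays were below sham arrays in both chambers by narrow gaps, with differences of -0.06 in the atrium and -0.16 in the ventricle (adjusted p = 0.726 and 0.314 in limma). The other probe set had 4.96, 5.004 and 4.90 in shunt atria, against 5.18, 5.16 and 5.06 in sham atria. On it, shunt ventricles had 5.89, 5.85 and 5.81, against 6.26, 6.27 and 6.23 in sham ventricles. The groups did not overlap in either chamber, and the ventricular gap was wide beside the spread within groups. This probe set fell by 0.41 in the ventricle (SE 0.0593, adjusted p = 0.0421 in limma), and its atrial difference of -0.18 was not called (adjusted p = 0.175). With single arrays left out, the ventricular call held 3 times in 12 (-0.43 to -0.38), and it was lost when the ventricular arrays were fitted alone (adjusted p = 0.114 in limma). The probe sets thus agree in sign and differ in size and call.

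Cacnb2 encodes a cytoplasmic subunit that carries the channel to the membrane. It had 7.70, 7.68 and 7.80 in shunt atria, against 7.74, 7.68 and 7.73 in sham atria. Shunt ventricles had 8.20, 8.07 and 8.26, against 8.14, 8.05 and 8.16 in sham ventricles. Both pairs of groups overlapped, with differences of 0.01 in the atrium (95% interval -0.14 to 0.16) and 0.06 in the ventricle (-0.09 to 0.21). Its other probe sets gave -0.15 and -0.05 in the atrium and -0.06 and -0.04 in the ventricle, and limma called none of them.

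Cacng6 encodes a gamma subunit of voltage-gated calcium channels. It had 5.07, 5.10 and 5.24 in shunt atria, against 5.24, 5.68 and 5.50 in sham atria. Shunt ventricles had 4.32, 4.36 and 4.37, against 5.06, 5.03 and 5.07 in sham ventricles. The ventricular groups were tight and far apart, and the atrial groups came within 0.01 of each other. The gene fell by 0.70 in the ventricle (SE 0.0949, 0.616-fold, adjusted p = 0.0269 in limma). The atrial difference was -0.34 (SE 0.0949) and was not called (adjusted p = 0.116 in limma). The ventricular call held in 6 of the 12 fits without 1 array, with values from -0.71 to -0.69, and was lost without sham atrium 3, shunt ventricle 1 or 3, or any of the 3 sham ventricles. The atrial difference passed the threshold with array weights (-0.38, adjusted p = 0.0325 in limma) and without sham atrium 1 (-0.45, adjusted p = 0.0343 in limma). Cacng6 was measured by a single probe set at the 56.0th percentile of mean value.

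No member was called for a difference between the atrial and the ventricular shunt effect. In limma 0 of 20 member probe sets and 0 of all 18625 passed, a background of 0%, and 3 of 20 members had an unadjusted p below 0.05, against 6.6% of all probe sets. With other settings the count over all probe sets was 11 with array weights and 1 with a trended, robust prior. It was 1 with the hexokinase control, described below, as a covariate, and 0 members were called in each setting. For Cacng6 the atrial effect exceeded the ventricular effect by 0.36 (95% interval 0.07 to 0.65, adjusted p = 0.651 in limma). For the called Cacna1c probe set it exceeded it by 0.23 (0.04 to 0.41, adjusted p = 0.645 in limma). The ventricular falls of Cacng6 and Cacna1c are therefore not shown to be particular to the ventricle. Over the 20 probe sets the median difference was -0.05 in the atrium, where the median of all probe sets was -0.01, and -0.07 in the ventricle, where it was -0.01.

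Between the chambers more of these genes were called than between the operations, and Sln and Slc24a3 differed most. In shunt rats 12 of 20 member probe sets were called, 6 higher and 6 lower in atrium, where 41.9% of all probe sets were called, 22.4% higher and 19.4% lower. In sham rats 13 of 20 were called, 7 higher and 6 lower, where 47.2% of all were called, 25.2% higher and 22% lower. Arrays did not overlap for 14 of 20 in shunt rats, against a background of 49.3%, and for 17 of 20 in sham rats, against 61.2%. By main probe sets, 4 of the 10 genes were higher and 3 lower in the atrium of shunt rats, against 45.6% of genes called, 24.8% higher and 20.9% lower. In sham rats 5 were higher and 3 lower, against 50.2% of genes called, 27.6% higher and 22.6% lower. Many genes of all kinds differ between the chambers, so these counts say little of the members, and the sizes and directions are described. The chamber comparisons share their arrays with the shunt comparisons.

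Sln had the widest chamber difference of the 10 genes, 8.56 higher in atrium than in ventricle of shunt rats (SE 0.183) and 8.02 higher in sham rats (SE 0.183). The second was Slc24a3, with 1.98 in shunt rats and 1.97 in sham rats, about 3.94-fold and 3.92-fold. The gene that fell in both chambers thus kept its chamber difference. Its second probe set, under the filter, was also higher in atrium, by 0.50 in shunt rats and 0.81 in sham rats (adjusted p = 0.000954 and 1.66e-05 in limma without the filter). Cacng6 was higher in atrium by 0.78 in shunt rats and by 0.42 in sham rats. Slc8a1 was higher by 0.58 in shunt rats and by 0.47 in sham rats, while its second probe set gave 0.35 in shunt rats and 0.14 in sham rats without a call (adjusted p = 0.247 and 0.65 in limma). With the hexokinase covariate the second probe set passed in shunt rats (0.32, adjusted p = 0.00514 in limma) and sham rats (0.34, adjusted p = 0.00393 in limma). In shunt rats it also passed with array weights (0.60, adjusted p = 0.0138 in limma) and without shunt atrium 3 (0.64, adjusted p = 0.0104 in limma). For Ryr2 the atrial excess of 0.23 was called in sham rats (adjusted p = 0.0136 in limma), and that of 0.09 in shunt rats was not (adjusted p = 0.268). The difference between these was the interaction given above, which was not called for any member. The second Ryr2 probe set gave 0.30 in shunt rats and 0.39 in sham rats without a call (adjusted p = 0.258 and 0.134 in limma). In sham rats it passed with array weights, with the hexokinase covariate, with the sham arrays fitted alone and without shunt ventricle 2 (adjusted p = 0.0494, 0.0297, 0.00348 and 0.0317 in limma). In shunt rats it passed without shunt ventricle 2 (0.58, adjusted p = 0.0104 in limma).

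Pln was lower in atrium than in ventricle, by a difference of -0.54 in shunt rats and -0.63 in sham rats. Its second tested probe set gave -0.65 in shunt rats and -0.74 in sham rats, and the third, under the filter, gave -0.33 in shunt rats and -0.53 in sham rats. All Pln probe sets therefore ran the same way, and opposite to Sln, the other pump inhibitor. Cacna1c was lower in atrium by a difference of -0.99 in shunt rats and -1.09 in sham rats, and its other probe set gave -0.89 in shunt rats and -1.12 in sham rats. Cacnb2 was lower too, at -0.45 in shunt rats and -0.40 in sham rats, while Cacng6, another subunit gene of calcium channels, was higher in atrium. Each of these calls on a tested probe set was kept in 12 of 12 fits that left out 1 array. Casq2 was not called, at 0.11 in shunt rats (95% interval -0.05 to 0.26) and 0.14 in sham rats (-0.01 to 0.29).

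**Figure D3:**
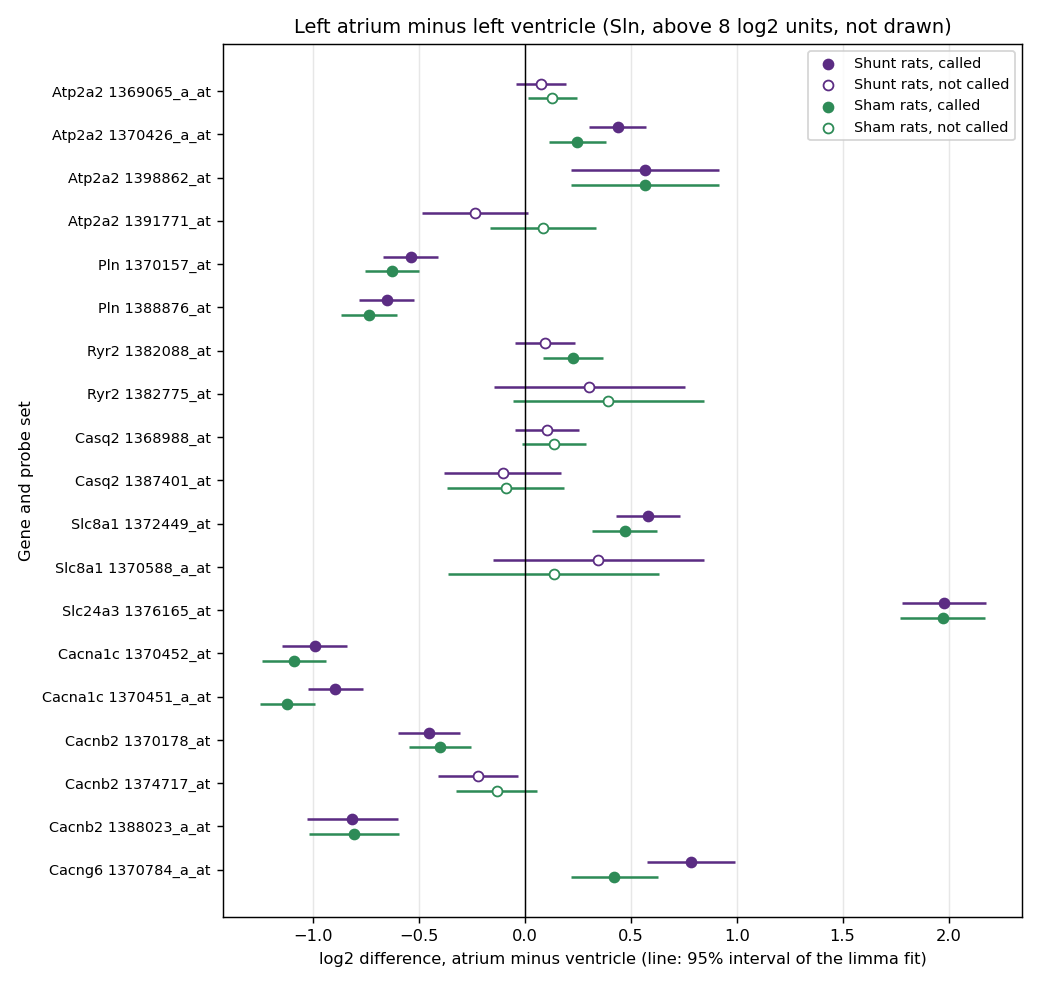
Difference between left atrium and left ventricle (log2) for the tested probe sets other than Sln, in shunt rats (upper mark of each row) and sham rats (lower mark), with 95% intervals of the limma fit. Filled marks are calls. Slc24a3 lies near 2 in both, Pln, Cacna1c and Cacnb2 lie below 0, and the 4 Atp2a2 probe sets do not agree.

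Probe sets of a gene disagreed for several members. For Atp2a2 the main probe set gave an atrial excess of 0.08 in shunt rats and 0.13 in sham rats that was not called. In sham rats it passed with array weights (0.13, adjusted p = 0.0285 in limma), with cyclic loess (0.21, adjusted p = 0.00868 in limma) and in 2 other settings. In shunt rats it passed with a trended, robust prior (0.08, adjusted p = 0.0302 in limma). The probe set with a mean of 9.96 over all arrays was called at 0.44 in shunt rats and 0.25 in sham rats, that with a mean of 8.93 was called at 0.57 in both, and that with a mean of 4.17 gave -0.24 in shunt rats and 0.08 in sham rats without a call. Of the call at 0.57 in shunt rats, the value was 0.33 without shunt atrium 3, and the call was lost when only the arrays of shunt rats were fitted. The probe set with a mean of 4.17 had 4.32, 4.29 and 4.47 in shunt ventricles, against 3.92, 4.08 and 4.15 in sham ventricles, a difference of 0.31 that limma did not call (adjusted p = 0.245). Between chambers of shunt rats it passed as lower in atrium with array weights (-0.38, adjusted p = 0.0188 in limma). It also did so without shunt atrium 3 (-0.34, adjusted p = 0.0294 in limma). The remaining one, with a mean of 3.77, lay under the filter and was called in no comparison of the fit without it. So the chamber difference of the pump gene depends on which probe set is read. For Cacnb2, the probe set with a mean of 6.30 was lower in atrium, at -0.81 in both operations, and that with a mean of 6.33 was not called, at -0.22 in shunt rats (adjusted p = 0.0614 in limma) and -0.13 in sham rats (adjusted p = 0.233). In shunt rats the second of these passed under 8 alternatives, with adjusted p from 0.0169 to 0.047 in limma, so the disagreement lies in size more than in direction. For Casq2 the second probe set gave -0.10 in shunt rats and -0.09 in sham rats, opposite in sign to the main one, with no call.

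For Slc8a1 and Ryr2 the second probe sets moved with single arrays. The second Slc8a1 probe set had 6.85, 6.71 and 5.90 in shunt atria, against 6.84, 6.69 and 6.83 in sham atria. The same probe set had 5.81, 6.58 and 6.03 in shunt ventricles, against 6.67, 6.65 and 6.63 in sham ventricles. The low arrays were shunt atrium 3 and shunt ventricles 1 and 3. The hexokinase 3′ minus 5′ value, from control probe sets on the array, is higher where the 5′ part of that RNA gives less signal. This value does not tell broken RNA from incomplete copying. It was 0.799, 0.937 and 1.44 in shunt atria, against 1.01, 1.10 and 1.06 in sham atria. Shunt ventricles had 1.23, 0.824 and 1.18, against 0.842, 1.02 and 0.895 in sham ventricles. The 3 arrays where this Slc8a1 probe set was low were the 3 with the highest hexokinase values. Without shunt atrium 3 the atrial difference of this probe set was -0.003, against -0.30 with it. With the hexokinase value as a covariate, its ventricular difference was -0.27 (adjusted p = 0.119 in limma), against -0.51 without it (adjusted p = 0.33). With this covariate Slc24a3 was -0.77 in the atrium and -0.84 in the ventricle, Cacng6 was -0.73 and the called Cacna1c probe set -0.39 in the ventricle, and limma called all of them. The part of RNA quality or labelling in the differences was not tested further.

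The second Ryr2 probe set had 9.40, 8.86 and 8.94 in shunt atria, against 9.34, 9.61 and 9.50 in sham atria. It had 8.63, 9.31 and 8.35 in shunt ventricles, against 9.10, 9.08 and 9.08 in sham ventricles. Shunt ventricles were spread over nearly 1 log2 unit, and both pairs of groups overlapped. Its differences were -0.42 in the atrium and -0.33 in the ventricle, and neither was called. With the covariate they were -0.41 and -0.19. The Atp2a2 probe set with a mean of 8.93 was high on shunt atrium 3 (9.71, against 9.04 and 8.96 on the other shunt atria), and its atrial difference was 0.05 with that array and -0.19 without it.

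**Figure D4:**
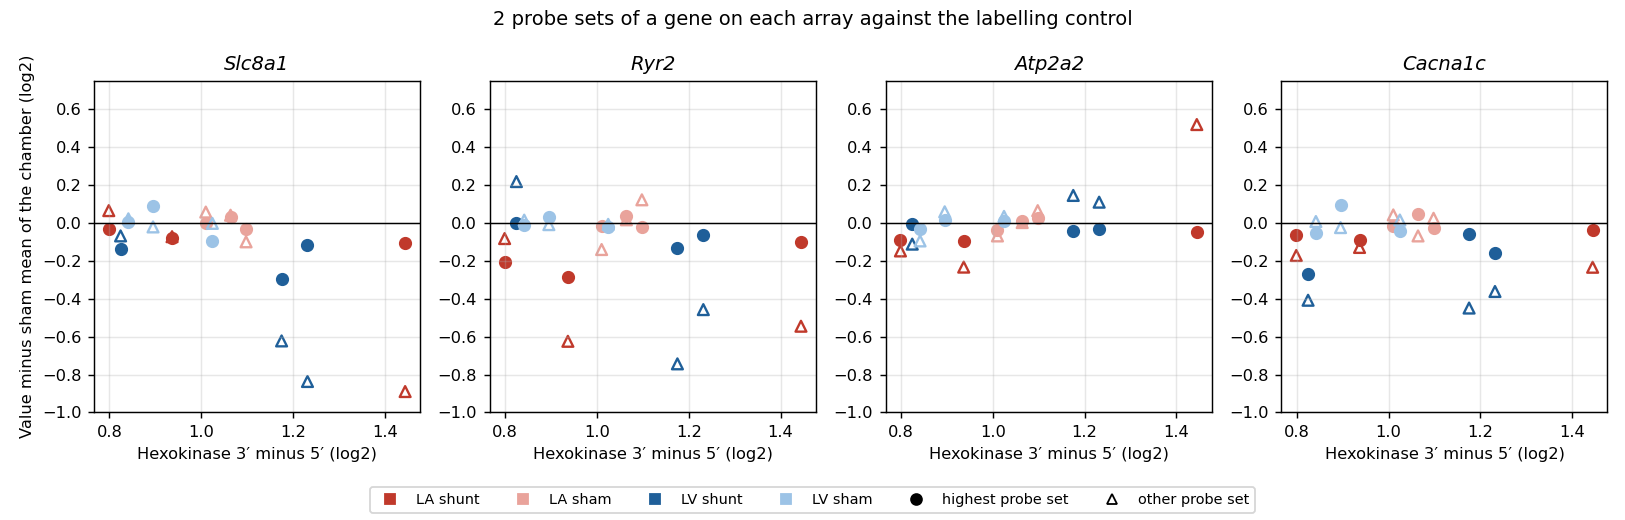
Value of 2 probe sets of Slc8a1, Ryr2, Atp2a2 and Cacna1c on each array, minus the sham mean of the chamber (log2), against the hexokinase 3′ minus 5′ difference of the array (log2). Circles are the highest probe set, triangles the other. The Slc8a1 triangles are low on the 3 arrays with the highest control values, and the called Cacna1c triangles are low on all 3 shunt ventricles, including that at 0.824.

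The wider calcium apparatus was read from a list of 94 other genes, of which 64 had a tested probe set. In the atrium 1 was called lower and 0 higher, beside 1.4% of genes called in all. In the ventricle 0 were called by limma, beside 0.113% of all genes, and 10 of 64 had an unadjusted p below 0.05, against 14.7% of all probe sets. In the atrium 16 of 64 had one, against 15.2%. The median difference was -0.05 in each chamber, where over all genes tested it was -0.01 in atrium and 0.00 in ventricle. Cacna2d1, a subunit that holds calcium channels at the surface, had 6.86, 6.92 and 6.92 in shunt atria, against 7.27, 7.31 and 7.23 in sham atria. These groups were tight and apart, and the gene fell by 0.37 (SE 0.0637, adjusted p = 0.0181 in limma). Its call held in 7 of 12 fits without 1 array and was lost when the atrial arrays were fitted alone. In the ventricle its difference was -0.16 (adjusted p = 0.29 in limma).

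S100a1, a calcium-binding protein that acts on the pump and the release channel, had 7.98, 7.91 and 8.18 in shunt atria, against 8.27, 8.60 and 8.33 in sham atria. The difference of -0.38 was not called (adjusted p = 0.0984 in limma). It passed with array weights (-0.43, adjusted p = 0.0187 in limma), with a trended, robust prior (-0.38, adjusted p = 0.047 in limma), with the hexokinase covariate (-0.38, adjusted p = 0.0268 in limma) and without shunt atrium 3 (-0.46, adjusted p = 0.0411 in limma). Over the 9 roles in the list, the median difference in the atrium ran from -0.09 to 0.08, the latter for channel subunits. It rounded to -0.09 for exchangers, for kinases, cyclases and phosphodiesterases, for pump regulators and for calcium pumps. In the ventricle it ran from -0.15 for kinases, cyclases and phosphodiesterases to 0.15 for the 2 exchangers. None of the 12 kinases, cyclases and phosphodiesterases, which set phosphorylation of the pump, its inhibitor and the channels, was called in either chamber. Their differences were negative for all 12 in the atrium, and for 11 with 1 positive in the ventricle. Camk2d, the calcium-dependent kinase among them, was called in no comparison of the main fit. Between chambers it passed as lower in atrium under 2 alternatives. These were the hexokinase covariate in sham rats (-0.21, adjusted p = 0.0383 in limma) and leaving out shunt atrium 3 in shunt rats (-0.33, adjusted p = 0.0308 in limma).

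Between chambers, 21 of the 64 were higher and 10 lower in the atrium of shunt rats. There 45.6% of all genes were called, 24.8% higher and 20.9% lower. In sham rats 23 were higher and 12 lower, where 50.2% were called, 27.6% higher and 22.6% lower. The totals are near the shares called in either direction. By direction, higher calls stood above their share and lower calls below theirs. Of the 64, 18 were higher and 8 lower in both operations, and the share of all genes called in both was not counted. Cacna1g, the pore of a T-type channel, was higher in atrium by 2.14 in shunt rats and 2.11 in sham rats. Slc24a4, a relative of Slc24a3, was higher by 1.22 in shunt rats and 1.82 in sham rats. Ppp1r1a, an inhibitor of protein phosphatase, was higher by 1.23 in shunt rats and 1.61 in sham rats. The inositol trisphosphate receptor Itpr1 was higher by 1.34 in both. The channel subunits Cacna2d3 and Cacna2d1 were higher by 0.82 and 0.50 in shunt rats and by 1.03 and 0.72 in sham rats. Cacna2d3 values were low, with means of 4.62 in shunt atria and 4.94 in sham atria. Its ventricular means, 3.80 in shunt rats and 3.92 in sham rats, lay under the level of the filter. The gene was tested because its mean over all arrays passed. Of the 8 tested pump regulators, 4 were higher in the atrium of shunt rats, against 24.8% of all genes, and 6 in that of sham rats, against 27.6%, with 0 lower in both.

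Other genes were lower in atrium. Asph, whose products include junctin, a protein of the release channel's complex, gave -0.95 in shunt rats and -1.17 in sham rats. The junctophilin Jph2 gave -0.51 in shunt rats and -0.57 in sham rats, and Jph1 gave -0.60 in shunt rats and -0.48 in sham rats. Triadin (Trdn) was called lower in shunt rats, at -0.46, and was 0.08 in sham rats without a call (adjusted p = 0.634 in limma). The difference between these, -0.54, was not called (adjusted p = 0.544 in limma). Over the 14 tested release channels and their partners, 5 were higher and 4 lower in the atrium of shunt rats. Of all genes, 24.8% were higher and 20.9% lower there. In the atrium of sham rats 3 were higher and 3 lower, against 27.6% of all genes higher and 22.6% lower. The phosphodiesterase Pde4d gave -0.78 in shunt rats and -0.58 in sham rats, and Pde3a was lower in sham rats, at -0.47. Pde3a values were low, from 4.27 to 5.07 over the arrays. In shunt rats they were 4.52, 4.48 and 4.27 in atrium and 4.58, 4.87 and 4.55 in ventricle. Casq1, the calsequestrin of fast skeletal muscle, was lower, at -0.57 in shunt rats and -0.48 in sham rats. Of the other pumps of the store, Atp2a1 was higher in atrium by 0.38 in shunt rats and 0.47 in sham rats, and Atp2a3 was lower, at -0.36 in shunt rats and -0.39 in sham rats. Atp2a1 values were low, with ventricular means of 3.94 in shunt rats and 4.02 in sham rats. Ryr3 was called higher in the atrium of shunt rats, at 0.64, although its arrays overlapped and the call held in 8 of 12 fits without 1 array. Its group means were low, from 4.09 in shunt ventricles to 4.87 in sham atria. Hrc, a histidine-rich calcium-binding protein of the store, was higher in atrium of sham rats by 0.32. In shunt rats it was higher by 0.17 without a call (adjusted p = 0.0932 in limma). The difference between these was not called (adjusted p = 0.888 in limma). Slc8a2, Slc8a3 and Cacng7 lay under the filter, and Strit1 had no probe set by a single symbol.

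**Figure D5:**
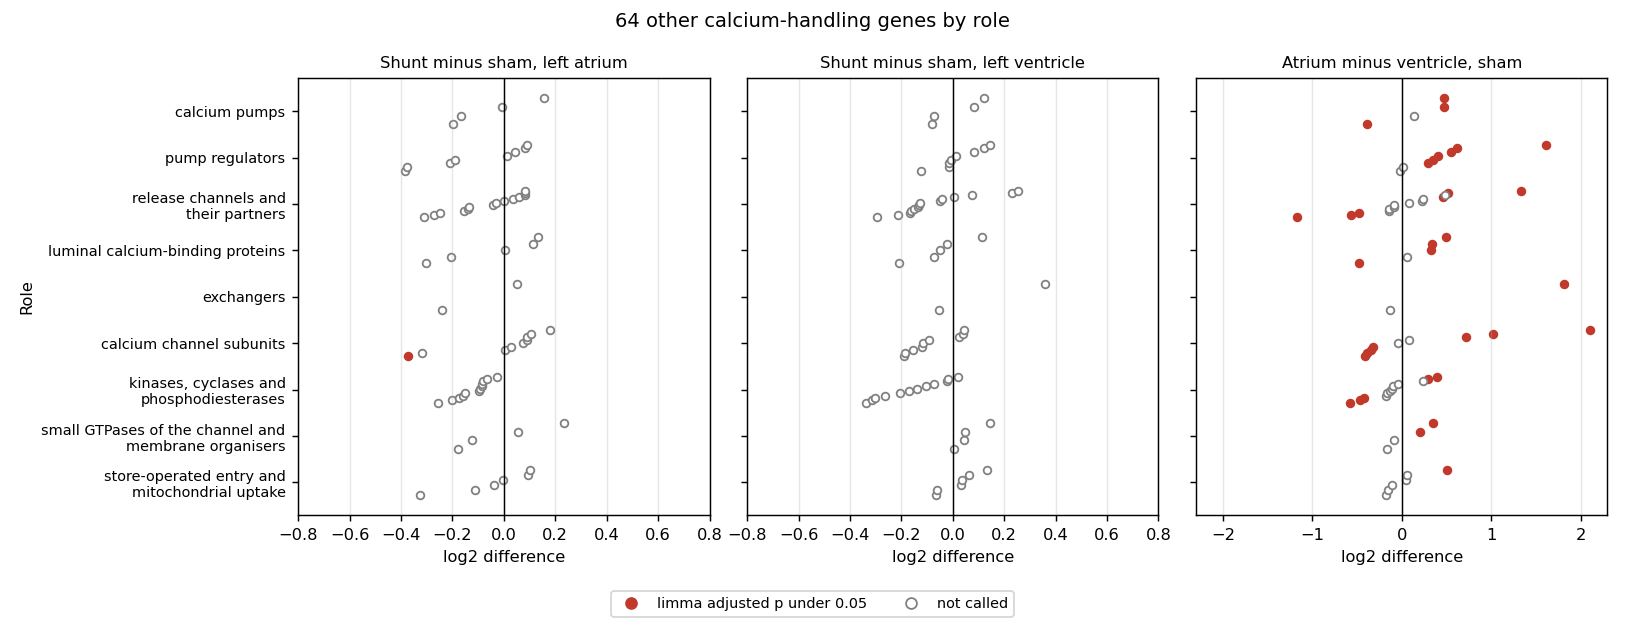
Differences (log2) of 64 other calcium-handling genes grouped by role, for shunt minus sham in left atrium, shunt minus sham in left ventricle, and left atrium minus left ventricle in sham rats. Filled marks are calls at a limma adjusted p below 0.05. Calls are few in the shunt comparisons (1 in atrium, 0 in ventricle) and many between chambers (35).

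For the members whose group means span over 1 log2 unit, the genes with the most similar pattern were found as the smallest root mean square difference over the 12 arrays, after each probe set was centred on its own mean. For Sln, whose own root mean square about its mean was 4.16, these were Myl4 at 0.192, Mybphl at 0.739 and Myl7 at 1.02. Myl4 and Myl7 are the atrial myosin light chains. For Slc24a3 (1.06) they were Pdlim3 at 0.264, Nr1h3 at 0.276 and Tppp3 at 0.278. For Cacna1c (0.527) they were Etfdh at 0.0591, Acadvl at 0.0732 and Lrpprc at 0.0767, which encode proteins of the mitochondrion. For Cacng6 (0.42) they were Txn2 at 0.133, Hsph1 at 0.152 and Plekhf1 at 0.158. In the sets of Sln, Slc24a3 and Cacna1c, group means differed more between the chambers than between the operations. The Cacng6 set also ran lower in shunt than in sham rats in both chambers. Txn2 of this set had means of 9.22 in shunt atria, 9.59 in sham atria, 8.44 in shunt ventricles and 9.02 in sham ventricles. These likenesses are a description.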

How the data were processed

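RNA of left atrium and left ventricle from shunt and sham rats was measured on 12 arrays, 3 per group. The deposited values are log2 expression from RMA, per the submitters' processing notes; its version, and which arrays were normalized together, are not given in the sources used here. The table held 31099 probe sets, of which 57 controls were left out. Gene symbols came from the platform annotation and were updated through the GRCr8 gene table; promoter sequences are RefSeq's. limma 3.58.1 in R 4.3.3 was fitted with 1 mean per group over all 12 arrays (8 residual degrees of freedom), with a 40th percentile filter and no covariate, and was tested on simulated data. The number of arrays limits the precision. Members and gene lists were chosen with earlier results of these data known. Named genes were all members, and of the other calcium genes at most the 6 largest calls in each direction of a comparison plus 12 always named. Alternatives changed the filter, the normalization, the prior, array weights, the arrays fitted, the hexokinase covariate and a replicate block.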

Additional observations from a re-analysis of the deposited data

How the results depend on the processing

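No member's called difference changed sign under any alternative. In the atrium the count of member probe sets called was 1, became 3 with array weights and 2 with a trended, robust prior, and ran from 1 to 2 over the fits without 1 array. In the ventricle it was 3 and ran from 0 to 3 over the fits without 1 array: it was 0 without shunt ventricle 3, sham ventricle 1 or sham ventricle 3, and 1 without sham atrium 3, shunt ventricle 1 or sham ventricle 2. The cause was not tested. The difference of effects gave 0 members under every alternative. The chamber counts ran from 12 to 15 in shunt rats and from 13 to 14 in sham rats over the fits without 1 array. Same-numbered atrial and ventricular pools deviated together in part: correlations were -0.243, 0.444 and 0.445 in shunt rats and 0.228, 0.26 and 0.072 in sham rats, against -0.101 to 0.064 between operations. They may come from the same animals, which the labels do not say, and the numbers were not taken as pairs. A replicate block over all groups gave 1 call in the atrium, 3 in the ventricle, 0 for the difference of effects, 12 for the chambers in shunt and 13 in sham rats, and a block within an operation gave 13 in each, with 1 Cacnb2 probe set gained in shunt rats. Over all probe sets the atrial count of 243 became 910 with array weights, 426 with a trended, robust prior, 758 with the hexokinase covariate and 43 with the atrial arrays alone. The ventricular count of 20 became 160, 96, 215 and 10 under the same settings, 38 with quantile normalization and 82 with a 60th percentile filter. Cacng6 was not tested at that filter. With 3 arrays per group, small changes are not detectable.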
